A study of Mus musculus with 24 samples.

Results

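The genes described here were 10 genes of liver angiocrine signalling, the signals that blood vessels send to the cells around them. They were found by name, as the table rows whose gene name was *Wnt2*, *Wnt9b*, *Rspo3*, *Bmp2*, *Bmp4*, *Bmp6*, *Hgf*, *Met*, *Lgr5* or *Axin2*. All 10 names were found among the 25361 genes of the table, each in 1 row. Levels are given as TPM, the share of a transcript in its library after correction for gene length, in 24 RNA-seq libraries.

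The libraries came from mouse livers at embryonic day (E) 12.5 and held 2 cell fractions of 4 genotypes, with 3 replicates of each. Beads against CD146 collected the liver sinusoidal endothelial cell (LSEC) fraction, and the cells they left behind formed the non-EC fraction. Control embryos lacked Cre. *Chd4-ECko* embryos were Chd4 fl/fl; Brg1 fl/+; VE-cadherin-Cre+, *Brg1-ECko* embryos were Chd4 fl/+; Brg1 fl/fl; VE-cadherin-Cre+, and *Brg1/Chd4-ECdko* embryos were homozygous for both floxed alleles with the same Cre. Each single mutant was therefore also heterozygous for the other floxed allele, and the control embryos carried floxed alleles too. The genes encode CHD4 and BRG1, ATP-driven chromatin remodelling enzymes, and the Cre is driven by an endothelial promoter that is also active in some blood cells of the fetal liver. The cells were dissociated in the presence of transcription inhibitors, and red blood cells were lysed. All mutant comparisons within a fraction used the same 3 control libraries. The labels do not say whether replicates came from separate litters, so p-values measure the spread between these libraries.

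Wnt ligands such as WNT2 and WNT9B bind Frizzled and LRP5/6 receptors and stabilise beta-catenin, which switches on targets such as *Axin2*, and R-spondins such as RSPO3 strengthen the same signal through LGR receptors. BMP2, BMP4 and BMP6 bind BMP receptor kinases and act through SMAD proteins on targets such as the *Id* genes, and BMP2 and BMP6 from liver endothelium are known regulators of hepcidin and iron uptake. HGF activates the receptor tyrosine kinase MET on hepatoblasts, the precursors of hepatocytes and bile duct cells.

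The number of genes at 1 TPM or more was 12746 to 13219 in the LSEC fraction against 11450 to 11973 in the non-EC fraction, and log2 values of replicates correlated at 0.962 to 0.993 across genes. The paper gives a read number for the sequencing as a whole. The depth that each library reached is unknown, because TPM sum to the same total in each library. The summed TPM of 10 endothelial markers was 912 to 1899 in the LSEC fraction against 30.5 to 73.2 in the non-EC fraction. Markers of other cells also separated the fractions: the sum of 14 stellate and mesenchymal markers was 1397 to 2348 in LSEC libraries against 62.5 to 223 in non-EC libraries, and that of 8 mesothelial markers was 160 to 327 against 82.6 to 128. Most of the mesothelial sum of non-EC cells was *Podxl*, at a mean of 103 TPM in control non-EC cells against 74.5 TPM in control LSECs. The other tested mesothelial markers were higher in control LSECs, such as *Wt1* at 33.5 against 0.476 TPM. The sum of 8 hepatoblast markers was 17020 to 36810 in non-EC libraries and 3421 to 7891 in 11 LSEC libraries, but 27630 in LSEC *Brg1-ECko* replicate 1. For the *Brg1-ECko* LSEC comparisons, the LSEC order of levels, the likeness of genes and the test between fractions, values without that library are given beside the others, for the order and the likeness as a choice made after seeing the data. Mitochondrial genes took 13.9 to 31.5% of TPM in the LSEC fraction against 2.33 to 7.69% in the non-EC fraction. *Chd4* was at 246 to 285 TPM in control LSECs, 169 to 252 in *Chd4-ECko* LSECs and 242 to 256 in *Brg1/Chd4-ECdko* LSECs, and *Smarca4*, the gene of BRG1, was at 134 to 161 TPM in control LSECs, 111 to 157 in *Brg1-ECko* LSECs and 117 to 151 in *Brg1/Chd4-ECdko* LSECs. These ranges overlapped, and a TPM over the whole gene does not check the loss of single floxed exons.

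On the GRCm39 (mm39) assembly the ligand genes lay at chr6:17985468-18031892 on the minus strand (*Wnt2*), chr11:103618189-103640655 minus (*Wnt9b*), chr10:29327285-29411876 minus (*Rspo3*), chr2:133394079-133404816 plus (*Bmp2*), chr14:46620250-46636745 minus (*Bmp4*), chr13:38529065-38684280 plus (*Bmp6*) and chr5:16758041-16828178 plus (*Hgf*). The receptor and target genes lay at chr6:17463749-17573979 plus (*Met*), chr10:115286216-115423685 minus (*Lgr5*) and chr11:108811169-108841609 plus (*Axin2*). The 250 bases before each start site were read from this assembly at the start of the GENCODE canonical transcript and searched on both strands for the TCF/LEF core (CTTTGA or CTTTGT), through which beta-catenin acts, for the GC-rich SMAD element (GGCGCC) of BMP targets and for the SMAD box (CAGAC). The core stood in 26.9%, the GC-rich element in 9.38% and the box in 41.3% of the same windows of 21603 protein-coding genes. Of the 10 genes, *Axin2* and *Hgf* held the core, *Rspo3* held the GC-rich element, and *Met* and *Rspo3* held the box, while the other 6 held none. A match is a description of letters and not a binding site. The *Bmp2* window is shown because *Bmp2* was the member that passed a mutant comparison, and the 3 matches to the core and the GC-rich element, the rarer motifs, are shown with 10 bases on each side and the motif in capitals. Each is written 5' to 3' on the strand of its gene.
Bmp2, chr2:133393829-133394078, plus strand, upstream of the first exon: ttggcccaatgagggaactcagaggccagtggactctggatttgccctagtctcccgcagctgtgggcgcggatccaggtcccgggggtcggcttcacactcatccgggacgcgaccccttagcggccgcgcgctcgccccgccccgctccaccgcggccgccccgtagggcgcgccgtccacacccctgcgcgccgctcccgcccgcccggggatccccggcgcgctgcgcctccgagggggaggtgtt
Axin2, chr11:108811606-108811631, plus strand, 22 bases upstream of the start: cggctcgcgcCTTTGAagtgcacagt
Hgf, chr5:16758629-16758654, plus strand, 145 bases upstream of the start: gtgacctttgCTTTGTaagtttcttt
Rspo3, chr10:29412023-29412048, minus strand, 162 bases upstream of the start: ggaccccttaGGCGCCtcttcccgtc
The *Bmp2* window was 74.8% G and C. The windows of *Axin2* and *Hgf* overlapped exons of other annotated transcripts, and that of *Rspo3* overlapped no annotated exon.

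The first comparison asked in which fraction each gene was expressed. Among control embryos, all 6 tested ligand genes were higher in LSECs. Of these, *Wnt2*, *Bmp4* and *Bmp6* were under 1 TPM in all 12 non-EC libraries and entered the test only through LSECs, so their direction was fixed by the filter on low values. The receptor genes *Met* and *Lgr5* were higher in non-EC cells, and the Wnt target *Axin2* was higher in LSECs. *Rspo3* was at 53.5, 42.7 and 55.2 TPM in control LSECs (replicates 1, 2 and 3) and at 0.888, 0.216 and 0.778 TPM in control non-EC cells. *Bmp2* was at 46.1, 47.7 and 39.8 TPM in control LSECs and at 0.241, 0.225 and 0.271 TPM in control non-EC cells. These were the most abundant of the 10 transcripts in LSECs, and each non-EC value lay below 1 TPM. The ratio of mean TPM was 181 for *Bmp2* and 80.4 for *Rspo3*.

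The test of differences was limma's, run on log2(TPM + 1), a scale that understates the change of low genes. In this test a gene passed at a Benjamini-Hochberg adjusted p under 0.05, as 67.1% of the 13775 genes did between the control fractions (31.3% higher in LSECs, 35.8% lower). *Bmp2* was higher in LSECs by 5.19 ± 0.29 (log2 difference ± SE, adjusted p = 3.5e-12, limma, n = 3 per fraction) and *Rspo3* by 4.999 ± 0.30 (adjusted p = 8.4e-12, limma). Of the 10 genes, 9 entered the test, 7 were higher in LSECs and 2 were lower. The 7 include *Wnt2*, *Bmp4* and *Bmp6*, whose direction was fixed by the filter on low values. The values of LSECs and non-EC cells did not overlap for any of the 10 genes in the controls, which was also so for 75.1% of all genes tested. Over the 4 genotypes together the same directions passed for the 9 genes, where 82.6% of all genes passed.

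The other BMP ligands and *Hgf* were also LSEC-fraction transcripts. *Bmp4*, which patterns the early liver bud, was at 11.3, 13.2 and 15.3 TPM in control LSECs and at 0.355 ± 0.197 TPM in control non-EC cells (mean ± SD, n = 3), a log2 difference of 3.40 ± 0.26 (adjusted p = 4.9e-10, limma). *Bmp6*, the main BMP inducer of hepcidin in adult liver, was at 9.20, 9.07 and 6.26 TPM against 0.325 ± 0.069 TPM, a log2 difference of 2.78 ± 0.19 (adjusted p = 5.3e-11, limma). In the 12 non-EC libraries neither gene reached 1 TPM, with 0.0826 to 0.762 TPM for *Bmp4* and 0.121 to 0.394 TPM for *Bmp6*. *Hgf* was at 16.4, 16.8 and 20.9 TPM in control LSECs and at 1.82, 0.857 and 1.48 TPM in control non-EC cells, a log2 difference of 3.01 ± 0.25 (adjusted p = 1.0e-09, limma). HGF is made by stellate and endothelial cells of the liver, and the markers of both were higher in the LSEC fraction: 10 of 10 endothelial markers, 13 of 14 stellate and mesenchymal markers and 6 of 7 tested mesothelial markers passed the test upward, as 31.3% of all genes did. Of these *Emcn*, *Mcam*, *Cspg4* and *Lrrn4* were under 1 TPM in every non-EC library, so that the filter fixed their direction. The part of each cell type in the ligand levels was not tested, and in bulk RNA fewer cells of a type and less RNA per cell cannot be told apart.

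*Wnt2* was at 4.06, 7.13 and 3.89 TPM in control LSECs and at 0.152, 0.0592 and 0 TPM in control non-EC cells, a log2 difference of 2.46 ± 0.34 (adjusted p = 2.0e-06, limma). *Wnt9b* was lower, at 0.978, 0.318 and 0.689 TPM in control LSECs and listed at 0 in all 3 control non-EC libraries. Both genes encode canonical ligands of liver endothelium. *Wnt9b* reached 1 TPM in only 1 of 24 libraries, at 1.24 TPM, and so was too low for the limma test. An exact two-sided permutation test of its control values gave p = 0.1, the smallest that 3 against 3 libraries allow.

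**Figure D1:**
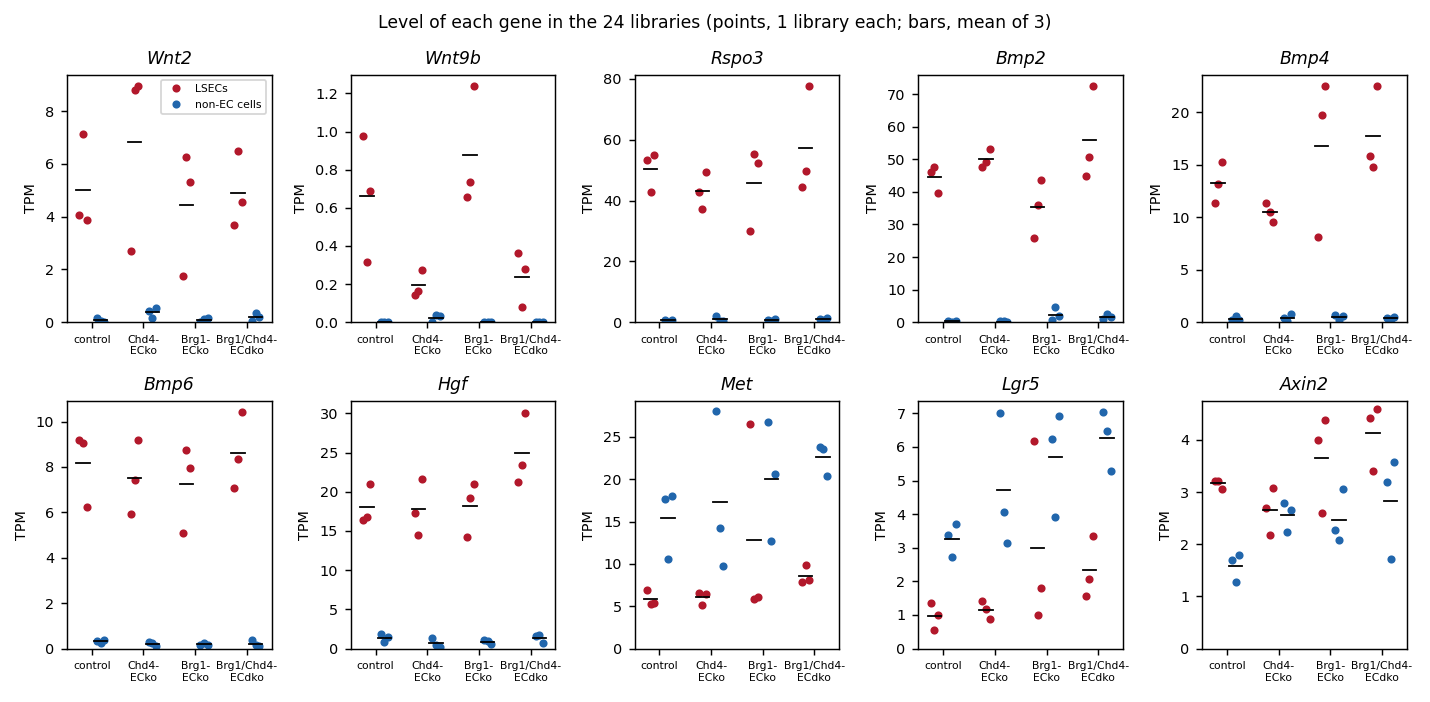
TPM (vertical axes, linear, a separate scale for each gene) of the 10 genes in each library, by fraction and genotype; points are single libraries and bars are means of 3. The 7 ligand genes stood lower in non-EC cells than in LSECs, while *Met* and *Lgr5* stood higher there, and 1 *Brg1-ECko* LSEC library was high for both receptors, at 26.6 TPM for *Met*.

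The receptors showed the opposite distribution. *Met* was at 6.88, 5.25 and 5.38 TPM in control LSECs and at 17.6, 10.6 and 18.0 TPM in control non-EC cells, lower in LSECs by a log2 difference of -1.24 ± 0.40 (adjusted p = 0.0101, limma). *Lgr5*, a receptor for R-spondins and itself a beta-catenin target, was at 1.35, 0.555 and 0.991 TPM in LSECs and at 3.38, 2.72 and 3.71 TPM in non-EC cells, a log2 difference of -1.13 ± 0.34 (adjusted p = 0.00577, limma). Both receptors were also measured in LSECs, as were hepatoblast markers. Per 1000 TPM of hepatoblast markers, *Met* was at 0.757 to 1.82 TPM in the LSEC fraction against 0.379 to 1.07 TPM in the non-EC fraction.

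*Axin2*, which encodes a feedback inhibitor of beta-catenin, was at 3.22, 3.22 and 3.07 TPM in control LSECs and at 1.70, 1.27 and 1.78 TPM in control non-EC cells. The log2 difference was 0.69 ± 0.19 (adjusted p = 0.00303, limma), and the mean TPM ratio was 1.997. This direction depended on the scaling: after quantile normalization the difference was 0.04 in controls (adjusted p = 0.857, limma) and -0.29 over the 4 genotypes (adjusted p = 0.00471, limma).

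**Figure D2:**
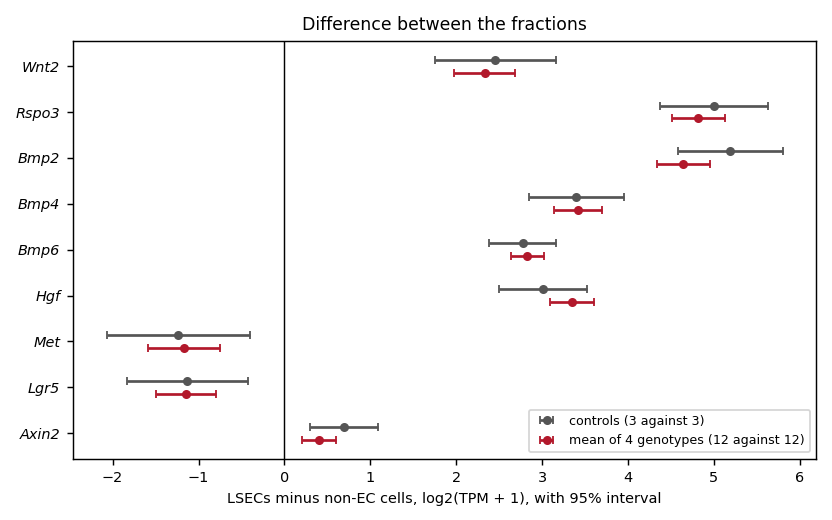
Log2(TPM + 1) of LSECs minus non-EC cells with its 95% interval from limma, for the 9 tested genes in controls and over the 4 genotypes. *Bmp2* and *Rspo3* had the largest differences of the 9 genes, near 5, and *Met* and *Lgr5* lay below 0.

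The order of levels in the LSEC fraction, from means over 12 libraries, began with *Rspo3* at 49.2 TPM and *Bmp2* at 46.4 TPM, which did not separate: *Rspo3* was above *Bmp2* in 6 of 12 libraries. *Bmp2* was above *Hgf* (19.7 TPM) in 12 of 12 libraries, *Hgf* was above *Bmp4* (14.6 TPM) in 10 of 12, and *Bmp4* was above *Met* (8.33 TPM) in 11 of 12. *Met* and *Bmp6* (7.89 TPM) did not separate, with *Met* the higher in 4 of 12 libraries. Without *Brg1-ECko* replicate 1 the mean of *Met* was 6.68 TPM, below *Bmp6* at 8.15 TPM, with *Bmp6* the higher in 8 of 11 libraries, and the order of the other genes did not change. *Wnt2* (5.31 TPM), *Axin2* (3.41 TPM), *Lgr5* (1.86 TPM) and *Wnt9b* (0.493 TPM) followed. In non-EC cells *Met* led with 18.8 TPM, above *Lgr5* (4.99 TPM) in 12 of 12 libraries, and *Lgr5* was above *Axin2* (2.36 TPM) in 12 of 12. The 7 ligands took the lower ranks there, from *Bmp2* at 1.13 TPM and *Hgf* at 1.07 TPM to *Wnt9b* at 0.00604 TPM. The mean of *Bmp2* rested on the genotypes homozygous for floxed *Brg1*: *Bmp2* was above *Hgf* in 4 of 12 libraries, and its control mean of 0.246 TPM was below those of *Hgf* (1.38 TPM), *Rspo3* (0.627 TPM), *Bmp4* (0.355 TPM) and *Bmp6* (0.325 TPM).

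The other genes of the pathways gave the setting of these levels in the control fractions. Of 19 listed Wnt ligands, 7 were tested and were higher in LSECs, but 6 of these were under 1 TPM in all 12 non-EC libraries, so that the filter fixed their direction. *Wnt11* had a mean of 8.23 TPM against 0.0452 TPM and a log2 difference of 3.14, *Wnt5b* 7.45 against 0.492 TPM (2.51), *Wnt4* 7.28 against 0.202 TPM (2.78) and *Wnt2b* 4.54 TPM in LSECs (2.19), so that *Wnt2* was not the most abundant ligand of its family. Besides *Rspo3*, the tested R-spondin genes were under 1 TPM in every non-EC library, with *Rspo1* at 11.6 against 0.341 TPM and *Rspo2* at 4.70 against 0.208 TPM, both below *Rspo3*. Of 9 tested genes of secreted Wnt inhibitors, 5 were under 1 TPM in all non-EC libraries and entered only through LSECs. Among the other 4, *Sfrp1* was at 107 against 1.83 TPM (log2 difference 5.32) and *Sfrp2* at 56.4 against 3.53 TPM (3.58). Wnt and R-spondin receptors were mixed, 8 higher and 3 lower of 14, where 31.3% of all genes were higher and 35.8% lower, with *Fzd2* higher by 4.01 and *Fzd4* by 3.39.

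Beta-catenin targets also moved in both directions between the control fractions, 8 higher and 4 lower of 13 tested, against the same 31.3% and 35.8% of all genes. Of the 8, *Nkd2*, *Lef1*, *Notum* and *Apcdd1* were under 1 TPM in every non-EC library and entered only through LSECs. *Nkd1* was at 18.2 against 1.24 TPM, a log2 difference of 3.11. *Rnf43* and *Znrf3*, whose products remove Frizzled from the membrane and are restrained by R-spondin through LGR receptors, were lower in LSECs, at 1.72 against 7.68 TPM and at 2.01 against 7.09 TPM, in the same direction as *Lgr5*.

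For comparison with the BMP counts that follow, 31.3% of all genes were higher in control LSECs and 35.8% lower. Of 9 tested BMP and GDF ligands, 7 were higher in control LSECs and 0 lower, and 5 of the 9 were under 1 TPM in every non-EC library, *Bmp5* and *Bmp10* among them. *Gdf2*, the gene of BMP9, was at 87.6 against 0.741 TPM (5.65), *Bmp5* at 27.5 against 0.135 TPM (4.64) and *Bmp10* at 20.1 against 0.142 TPM (4.18). *Bmp7* did not separate the fractions, at 3.41 against 3.56 TPM. BMP receptors and co-receptors passed in 10 of 11 cases, all higher, of which *Bmpr1b*, *Rgma* and *Rgmb* were under 1 TPM in every non-EC library, led by the endothelial co-receptor *Eng* (123 against 7.35 TPM, 3.88) and the BMP9/10 receptor *Acvrl1* (16.2 against 0.871 TPM, 3.23). BMP-SMAD targets were higher in 10 of 10 cases, of which 2 were under 1 TPM in every non-EC library: *Id3* was at 73.1 against 1.37 TPM (4.97) and the inhibitory SMAD gene *Smad6* at 50.9 against 4.07 TPM (3.36). Of 7 secreted BMP inhibitors 5 were under 1 TPM in every non-EC library, and the 1 that was lower in LSECs was *Fst* at 2.83 against 7.72 TPM.

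Of 11 tested genes of the HGF family, 3 were higher and 5 lower in control LSECs, where 31.3% and 35.8% of all genes were. The plasminogen activator genes *Plat* (55.2 against 4.34 TPM) and *Plau* (33.5 against 2.34 TPM), whose products can cleave pro-HGF, were higher with *Hgf*. *Mst1*, the HGF-like ligand of the RON receptor, was lower at 3.21 against 13.9 TPM. The HGF-activating proteases *Hgfac* (5.86 against 21.5 TPM) and *Hpn* (5.51 against 18.1 TPM) and the protease inhibitor *Spint2* (10.9 against 23.5 TPM) were lower with *Met*.

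The next comparisons asked whether endothelial loss of either remodeller, or of both, changed these genes in LSECs. None of the 9 tested genes passed in any of the 5 comparisons by limma, while 0.707% of 13444 genes passed in *Chd4-ECko* against control, 0.0223% in *Brg1-ECko* against control and 0.87% in *Brg1/Chd4-ECdko* against control. At an unadjusted p under 0.05 the number of these genes was 0, 1 and 1 in the same order, *Lgr5* in *Brg1-ECko* and *Hgf* in *Brg1/Chd4-ECdko*, where 6.49%, 9.68% and 12.1% of all genes were under that value. No other listed Wnt, BMP or HGF gene passed in these LSEC comparisons either.

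In *Chd4-ECko* LSECs the abundant ligands stayed within or near the control values. *Rspo3* was at 42.8, 37.2 and 49.5 TPM and *Bmp2* at 47.6, 49.2 and 53.3 TPM. *Hgf* was at 17.3, 14.5 and 21.7 TPM, on both sides of the control values. Log2 differences from control ranged from -0.31 for *Bmp4* (95% interval -0.92 to 0.30) to 0.28 for *Wnt2* (-0.59 to 1.16), and the adjusted p was 0.9999 for each of the 9 genes (limma). *Wnt2* varied among replicates, at 2.72, 8.80 and 8.95 TPM.

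*Wnt9b*, too low for limma, was at 0.143, 0.166 and 0.272 TPM in *Chd4-ECko* LSECs (exact permutation p = 0.1 against control). These values lay below all 3 control values (0.978, 0.318 and 0.689 TPM), as for 3.65% of all tested genes. *Wnt9b* was at 0.362, 0.0789 and 0.278 TPM in *Brg1/Chd4-ECdko* LSECs (exact permutation p = 0.2 against control) and at 0.655, 0.733 and 1.24 TPM in *Brg1-ECko* LSECs. Values of the double mutant were all below the *Brg1-ECko* values, as for 1.52% of all tested genes, with an exact permutation p = 0.1, the smallest this design can give.

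**Figure D3:**
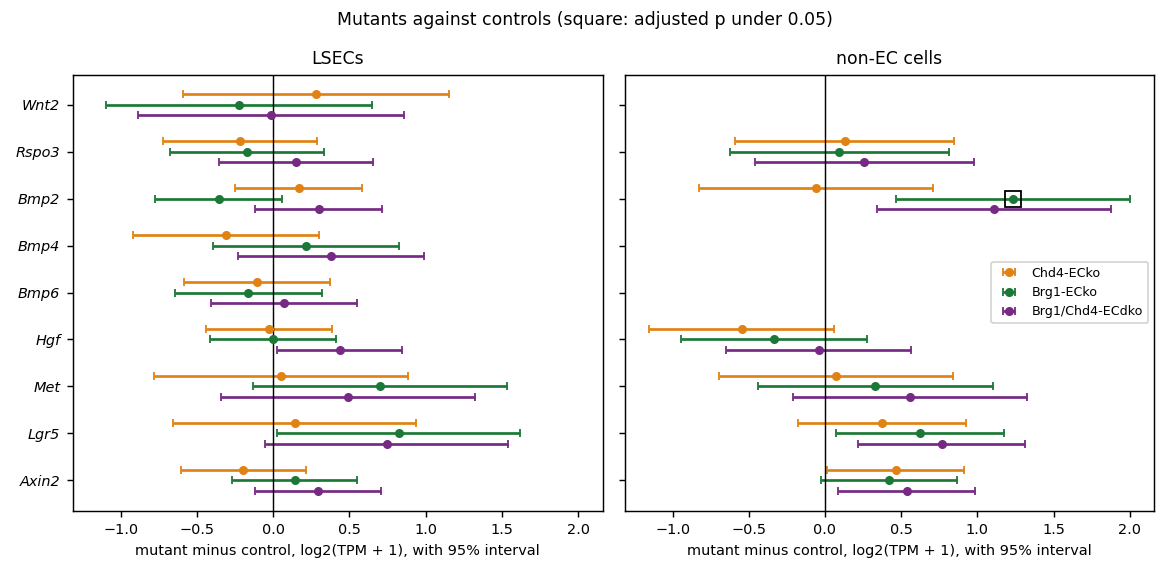
Log2(TPM + 1) of each mutant minus control with its 95% interval from limma, for the genes tested in LSECs (left) and in non-EC cells (right); a square marks an adjusted p under 0.05. The only square is *Bmp2* in *Brg1-ECko* non-EC cells at 1.24, and in LSECs most intervals cross 0.

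In *Brg1-ECko* LSECs, *Bmp2* was at 25.9, 36.0 and 43.7 TPM against 46.1, 47.7 and 39.8 TPM in controls, with a log2 difference of -0.36 ± 0.19 (adjusted p = 0.584, limma) and overlapping values. Without replicate 1 it was -0.16 (adjusted p = 0.9999, limma). The other members without that replicate ranged from 0.04 for *Met* and *Bmp6* to 0.64 for *Bmp4* (adjusted p = 0.484, limma). *Met* was at 26.6, 5.87 and 6.09 TPM and *Lgr5* at 6.19, 1.01 and 1.80 TPM. In both receptors replicate 1 stood far above the other 2 replicates, and it was also the library with 27630 TPM of hepatoblast markers. Across 12 LSEC libraries the Pearson correlation with the hepatoblast marker sum was 0.86 for *Met* and 0.73 for *Lgr5*, and it was 0.40 and 0.22 over the 11 libraries without this one. *Met* differed from control by 0.70 (adjusted p = 0.594, limma) with this library and by 0.04 without it. *Lgr5* differed by 0.82 (adjusted p = 0.500, limma) with it and by 0.29 without it. Per 1000 TPM of hepatoblast markers *Met* was at 0.961 TPM in this library, within the range of the other LSEC libraries.

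**Figure D4:**
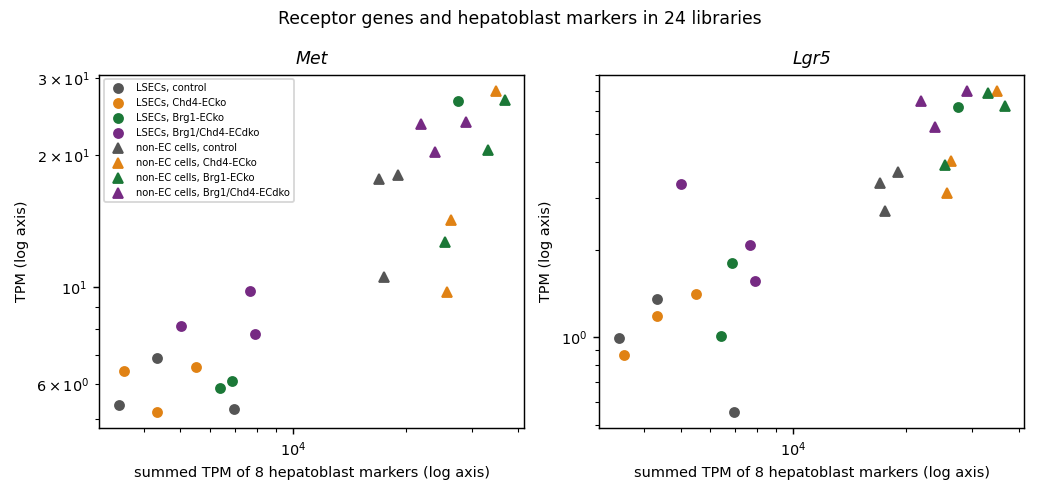
TPM of *Met* (left) and *Lgr5* (right) against the summed TPM of 8 hepatoblast markers, both on log axes; circles are LSEC libraries, triangles non-EC libraries, and colours are genotypes. The *Brg1-ECko* LSEC library with 27630 TPM of hepatoblast markers lies among the non-EC libraries on both panels, at 26.6 TPM of *Met* and 6.19 TPM of *Lgr5*.

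In *Brg1/Chd4-ECdko* LSECs, 4 of the 10 genes lay above all control values without overlap: *Hgf*, *Met*, *Lgr5* and *Axin2*. The share of all tested genes that did so was 20.8%. *Hgf* was at 21.2, 23.4 and 30.1 TPM against 16.4, 16.8 and 20.9 TPM, a log2 difference of 0.44 ± 0.19 (adjusted p = 0.383, limma). *Met* was at 7.83, 9.81 and 8.15 TPM, *Lgr5* at 1.56, 2.08 and 3.35 TPM and *Axin2* at 4.43, 3.40 and 4.58 TPM. Their log2 differences were 0.49, 0.75 and 0.29, with adjusted p of 0.574, 0.436 and 0.516 (limma), and none passed. The hepatoblast marker sum was 5020 to 7891 TPM (median 7665) in these libraries against 3421 to 6942 TPM (median 4333) in control LSECs, and its part in *Met* and *Lgr5* was not tested. The median difference over the 9 tested genes was 0.30 and that over all genes was 0.16, where quantile normalization moved the median of all genes by -0.16.

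*Brg1/Chd4-ECdko* LSECs were also set against each single mutant. Against *Chd4-ECko*, where 0.0372% of all genes passed, *Bmp4* was at 15.9, 14.8 and 22.5 TPM against 11.3, 10.5 and 9.58 TPM. The groups did not overlap, with a log2 difference of 0.69 ± 0.28 (adjusted p = 0.470, limma). *Axin2* (2.69, 2.18 and 3.09 TPM in *Chd4-ECko*), *Met* and *Lgr5* also lay higher in the double mutant without overlap, as 13.6% of all tested genes did, and *Axin2* differed by 0.49 ± 0.19 (adjusted p = 0.469, limma). Against *Brg1-ECko*, where 0.0967% of all genes passed, *Bmp2* was at 44.8, 50.8 and 72.4 TPM against 25.9, 36.0 and 43.7 TPM. Its log2 difference was 0.66 ± 0.19 with no overlap and an unadjusted p of 0.00452, but an adjusted p of 0.368 (limma). Without *Brg1-ECko* replicate 1 it was 0.46 (adjusted p = 0.711, limma). *Hgf* (14.2, 19.3 and 21.0 TPM in *Brg1-ECko*) also lay higher in the double mutant without overlap, as 7.48% of all tested genes did. *Wnt9b* lay lower without overlap, as given above, which was so for 1.52% of all tested genes. At an unadjusted p under 0.05 the number of the 9 genes was 3 against *Chd4-ECko* (*Bmp4*, *Hgf* and *Axin2*), where 10.4% of all genes were under that value, and 2 against *Brg1-ECko* (*Bmp2* and *Hgf*), where 6.1% were. Without *Brg1-ECko* replicate 1 the difference of *Hgf* from *Brg1-ECko* was 0.28 (adjusted p = 0.918, limma).

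*Bmp6* and *Rspo3* showed small differences in LSECs. *Bmp6* was at 5.95 to 9.19 TPM in *Chd4-ECko* and 5.07 to 8.75 TPM in *Brg1-ECko*, while *Brg1/Chd4-ECdko* had 7.06 to 10.4 TPM, with log2 differences from control of -0.11, -0.16 and 0.07. *Rspo3* was at 30.1, 55.2 and 52.4 TPM in *Brg1-ECko*, while *Brg1/Chd4-ECdko* had 44.6, 49.7 and 77.6 TPM. The 95% intervals for *Rspo3* against control ran from -0.73 to 0.29 in *Chd4-ECko*, from -0.68 to 0.33 in *Brg1-ECko* and from -0.36 to 0.65 in *Brg1/Chd4-ECdko*, so that a change of 1 on the log2 scale lay outside each.

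The same mutants were then compared in non-EC cells, which the Cre is not designed to target. Here 1 member passed in 1 comparison: *Bmp2* was higher in *Brg1-ECko* than in control. *Bmp2* was at 0.241, 0.225 and 0.271 TPM in non-EC cells of controls, 0.263, 0.240 and 0.0884 TPM in *Chd4-ECko* and 0.623, 4.53 and 1.82 TPM in *Brg1-ECko*, while *Brg1/Chd4-ECdko* had 1.12, 2.42 and 1.66 TPM. All 6 libraries of the 2 genotypes homozygous for floxed *Brg1* lay above all 6 libraries of the other 2. The control and *Chd4-ECko* libraries were all below 1 TPM, so *Bmp2* entered this test only through the groups in which it was high.

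In *Brg1-ECko* non-EC cells the log2 difference of *Bmp2* from control was 1.24 ± 0.35 (95% interval 0.47 to 2.004, adjusted p = 0.0423, limma), and the ratio of mean TPM was 9.46. The share of genes that passed in this comparison was 11.7% (8.91% higher). The call was not stable: over 12 alternatives the adjusted p was 0.0128 to 0.109 and passed in 6, and without *Brg1-ECko* replicate 2, the highest library, the difference was 0.78 (adjusted p = 0.0869, limma). In *Brg1/Chd4-ECdko* the difference from control was 1.11 ± 0.35 and the TPM ratio 7.06, with no overlap and an adjusted p of 0.180 (limma; 0.0589 to 0.474 over 13 alternatives), where 0.581% of genes passed. In *Chd4-ECko* the difference was -0.06 (adjusted p = 0.920, limma), where 9.48% of genes passed (6.17% higher). *Brg1/Chd4-ECdko* exceeded *Chd4-ECko* by 1.17 ± 0.35 (adjusted p = 0.217, limma), and 0% of all genes passed between these groups or between *Brg1/Chd4-ECdko* and *Brg1-ECko* (0% as well). At an unadjusted p under 0.05, 21.8% and 12.7% of genes did so.

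Endothelial markers moved with *Bmp2* in the non-EC libraries. Their sum was 51.3, 30.5 and 45.0 TPM in controls, 43.3, 41.4 and 34.6 TPM in *Chd4-ECko* and 44.9, 73.2 and 49.6 TPM in *Brg1-ECko*, while *Brg1/Chd4-ECdko* had 47.6, 59.5 and 52.6 TPM. The Pearson correlation of *Bmp2* with this sum was 0.84 over 12 non-EC libraries, and the library highest in *Bmp2* was the highest in the marker sum. *Emcn* and *Mcam*, the gene of CD146, were under 1 TPM in all non-EC libraries, and 0 of 7 tested endothelial markers passed in *Brg1-ECko*, with a median log2 difference of 0.49. Per 100 TPM of endothelial markers, *Bmp2* was at 0.470, 0.740 and 0.602 TPM in control, 0.607, 0.580 and 0.256 TPM in *Chd4-ECko* and 1.39, 6.19 and 3.66 TPM in *Brg1-ECko*, while *Brg1/Chd4-ECdko* had 2.36, 4.07 and 3.15 TPM. The ratio was higher in both genotypes homozygous for floxed *Brg1* than in the others, and it was 2.51 to 4.52 TPM in LSEC libraries. This division cannot take out endothelial cells left in the fraction. The ratio itself differed between the control fractions, at 2.51 to 2.74 TPM in control LSECs. Of 9440 genes, those most like *Bmp2* across the 12 non-EC libraries were *Cnrip1* (Pearson r = 0.96), the endothelial VEGF receptor gene *Kdr* (0.94) and *Tsc1* (0.93), a list made after the values of *Bmp2* were seen. *Kdr* was at 5.47, 3.11 and 4.90 TPM in control and at 3.08, 4.80 and 3.37 TPM in *Chd4-ECko* non-EC cells. It was at 6.47, 20.0 and 7.19 TPM in *Brg1-ECko* and at 8.37, 14.3 and 9.41 TPM in *Brg1/Chd4-ECdko* non-EC cells. Every library of the genotypes homozygous for floxed *Brg1* thus lay above every other library, as for *Bmp2*. The part of endothelial cells left in this fraction in the *Bmp2* result was not tested.

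**Figure D5:**
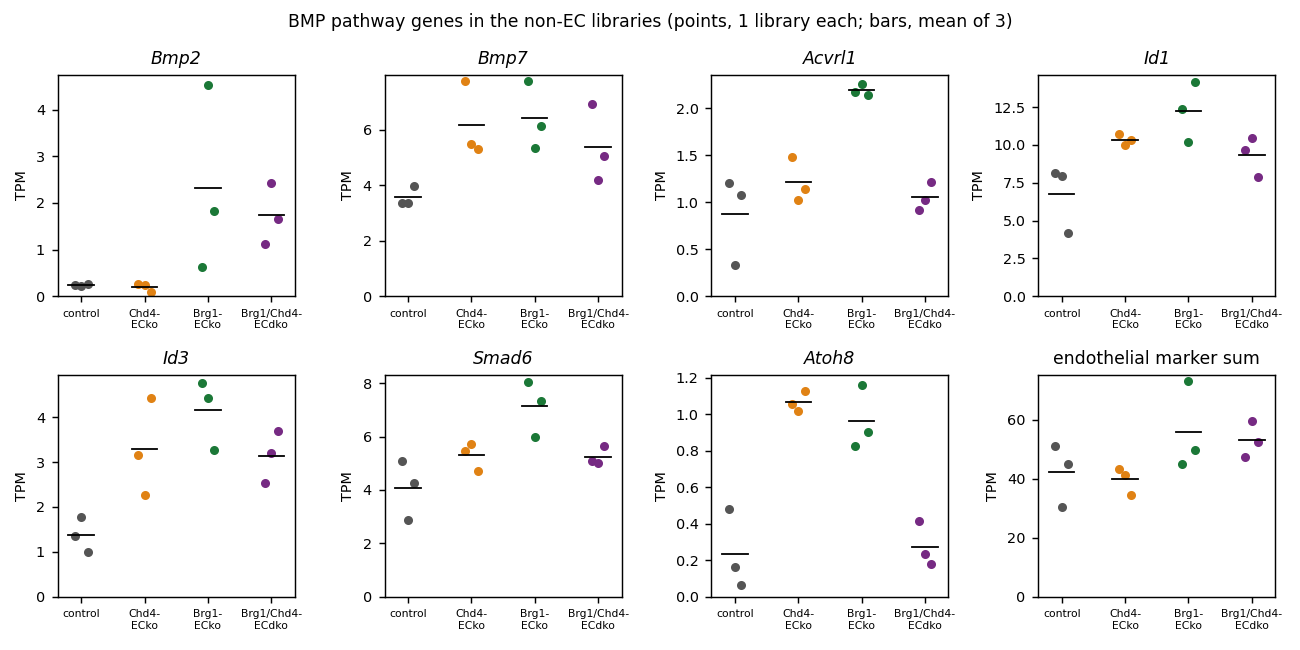
TPM (linear axes from 0) of *Bmp2*, *Bmp7*, *Acvrl1*, *Id1*, *Id3*, *Smad6* and *Atoh8* and the summed TPM of 10 endothelial markers in the non-EC libraries, by genotype; points are single libraries and bars are means of 3. *Bmp2* was higher in both genotypes homozygous for floxed *Brg1*, *Acvrl1* stood above the other groups only in *Brg1-ECko* libraries, and *Atoh8* stood above control in both single mutants but not in *Brg1/Chd4-ECdko*.

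The mean TPM of the receptors and *Axin2* was higher in mutant non-EC cells than in controls, but none passed the test and some groups overlapped with control. *Lgr5* was at 3.38, 2.72 and 3.71 TPM in controls, 7.01, 4.05 and 3.14 TPM in *Chd4-ECko* and 6.22, 3.91 and 6.93 TPM in *Brg1-ECko*, while *Brg1/Chd4-ECdko* had 7.05, 6.47 and 5.29 TPM. The last 2 groups did not overlap with control, and the log2 differences were 0.38, 0.62 and 0.77 (adjusted p = 0.310, 0.130 and 0.198, limma). *Axin2* was at 2.79, 2.23 and 2.66 TPM in *Chd4-ECko* and 2.28, 2.07 and 3.05 TPM in *Brg1-ECko*, while *Brg1/Chd4-ECdko* had 3.20, 1.71 and 3.58 TPM, against 1.70, 1.27 and 1.78 TPM in controls. Both single mutants lay above all controls, and the differences were 0.46, 0.42 and 0.54 (adjusted p = 0.135, 0.204 and 0.292, limma). *Met* was at 28.1, 14.2 and 9.74 TPM in *Chd4-ECko* and 26.7, 12.7 and 20.6 TPM in *Brg1-ECko*, both overlapping the control values and the first with 1 library below all of them, and at 23.8, 23.6 and 20.4 TPM in *Brg1/Chd4-ECdko*, above all 3 of them.

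Counted over the 10 genes, those above all control values without overlap were 1 in *Chd4-ECko* (*Axin2*, with 15.8% of all tested genes), 3 in *Brg1-ECko* (*Bmp2*, *Lgr5* and *Axin2*, with 21.9%) and 3 in *Brg1/Chd4-ECdko* (*Bmp2*, *Met* and *Lgr5*, with 16%). The 1 gene below all control values was *Bmp6* in *Brg1-ECko*, at 0.151, 0.251 and 0.143 TPM against 0.328, 0.255 and 0.394 TPM, too low for limma (exact permutation p = 0.1), where 18% of all tested genes lay below. Hepatoblast markers were also higher in mutant non-EC cells, with sums of 17020 to 19070 TPM in controls, 25720 to 34920 in *Chd4-ECko*, 25400 to 36810 in *Brg1-ECko* and 21970 to 29060 in *Brg1/Chd4-ECdko*, and with 6, 8 and 1 of 8 markers passing upward. Across the 12 non-EC libraries the correlation with this sum was 0.73 for *Lgr5*, 0.68 for *Axin2* and 0.50 for *Met*. The part of the hepatoblast share in these 3 genes was not tested.

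*Hgf* was lower on average in the single mutants, at 1.31, 0.476 and 0.219 TPM in *Chd4-ECko* and 1.12, 0.985 and 0.536 TPM in *Brg1-ECko* against 1.82, 0.857 and 1.48 TPM in control non-EC cells. The values overlapped, with log2 differences of -0.55 and -0.33 (adjusted p = 0.186 and 0.444, limma). *Rspo3* was at 0.216 to 2.07 TPM over the 12 non-EC libraries, with overlap in every comparison. *Wnt2* (0 to 0.558 TPM), *Bmp4*, *Bmp6* and *Wnt9b* were too low there to be tested.

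Some target genes of the BMP pathway passed upward in non-EC cells of the single mutants. In *Brg1-ECko*, 5 of 8 tested BMP-SMAD targets passed upward and 0 downward, with a median log2 difference of 0.69 against 0.02 over all genes, of which 8.91% passed upward, and leaving out single libraries gave 1 to 4. The hepatoblast marker sums given above were higher in mutant than in control non-EC cells, and the stellate and mesenchymal sums were 62.5 to 120 TPM in controls, 113 to 223 in *Chd4-ECko*, 113 to 177 in *Brg1-ECko* and 122 to 152 in *Brg1/Chd4-ECdko*. The endothelial marker sums stand with the *Bmp2* values, and *Id3* and *Smad6* were higher in control LSECs than in control non-EC cells, by 4.97 and 3.36. The part of hepatoblast, stellate, mesenchymal or endothelial cells in the target genes was not tested. *Id3* was at 4.76, 4.44 and 3.28 TPM against 1.34, 1.78 and 1.00 TPM in controls, a difference of 1.12 ± 0.21 (adjusted p = 0.00749, limma). *Id1* was at 12.4, 10.2 and 14.2 TPM against 8.13, 7.94 and 4.15 TPM (0.81, adjusted p = 0.0305, limma). *Smad6* was at 8.06, 5.99 and 7.35 TPM against 5.08, 2.87 and 4.26 TPM (0.70, adjusted p = 0.0252, limma). In each of these genes all 3 mutant libraries lay above all 3 controls. The other genes that passed were *Atoh8*, a transcription factor gene, at 0.828, 1.16 and 0.906 TPM against 0.479, 0.160 and 0.0639 TPM (0.68, adjusted p = 0.0190, limma), which entered the test only through the single mutants, and *Id2* (0.73, adjusted p = 0.0370, limma), which was named after its values were seen. In *Chd4-ECko*, where 6.17% of all genes passed upward, 2 of 8 did, *Id3* at 3.17, 2.27 and 4.43 TPM (0.84, adjusted p = 0.0368, limma) and *Atoh8*, with the same limit, at 1.06, 1.02 and 1.13 TPM (0.76, adjusted p = 0.0188, limma), with 0 to 2 when single libraries were left out. In *Brg1/Chd4-ECdko*, where only 0.581% of all genes passed, none of the 8 did (limma). *Id3* was there at 2.54, 3.21 and 3.69 TPM (0.81, adjusted p = 0.110, limma), a difference near that in *Chd4-ECko*, while *Atoh8* was at 0.412, 0.234 and 0.177 TPM.

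Upstream of these targets, *Acvrl1* was at 2.18, 2.26 and 2.14 TPM in *Brg1-ECko* non-EC cells against 1.20, 0.333 and 1.08 TPM in controls, 0.80 higher (adjusted p = 0.0196, limma). It was the 1 of 8 tested BMP receptor genes that passed. *Acvrl1* is itself expressed mainly by endothelial cells, and the endothelial marker sums stand with the *Bmp2* values. *Bmp7*, an epithelial BMP ligand, was at 7.77, 5.35 and 6.14 TPM against 3.36, 3.35 and 3.98 TPM (0.69, adjusted p = 0.0413, limma). *Bmp7* also lay above every control library in *Chd4-ECko* (0.64, adjusted p = 0.0565, limma) and *Brg1/Chd4-ECdko* (0.47, adjusted p = 0.352, limma), without passing. With *Bmp2* it made 2 of 4 tested BMP ligands in *Brg1-ECko*, where 8.91% of all genes passed upward. Of these 4, *Bmp2*, *Bmp8b* and *Gdf2* were under 1 TPM in every control library, and leaving out single libraries left 0 or 1.

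A minority of the Wnt genes and up to 5 of 9 HGF-family genes passed upward in non-EC cells of the single mutants, where 8.91% of all genes in *Brg1-ECko* and 6.17% in *Chd4-ECko* did. *Hgfac* had a mean of 47.8 TPM in *Brg1-ECko* and 43.9 TPM in *Chd4-ECko* against 21.5 TPM in controls, higher by 1.10 and 1.00 (adjusted p = 0.00276 and 0.00833, limma). *Hpn* rose by 0.94 and 0.88 and *Mst1* by 0.61 and 0.67. These were the 3 of 9 tested HGF-family genes that passed in *Brg1-ECko*, and in *Chd4-ECko* 5 of 9 passed, with *Spint2* (0.45) and *Plau* (0.78), the last named after its values were seen. Leaving out single libraries gave 2 to 4 and 2 to 6. Among 9 tested beta-catenin targets, *Ccnd1* and *Glul* passed in both single mutants, at 205 and 196 TPM for *Ccnd1* against 112 TPM in controls and 221 and 209 TPM for *Glul* against 154 TPM. *Ccnd1* encodes cyclin D1 and *Glul* glutamine synthetase, and both are also widely used outside Wnt signalling. *Rnf43* passed in *Chd4-ECko* (0.66), and leaving out single libraries gave 0 to 3 of these targets in each single mutant. Among 13 tested Wnt and R-spondin receptor genes, *Lrp5* alone passed, in both single mutants (0.68 in *Brg1-ECko* and 0.62 in *Chd4-ECko*). Among 4 tested genes of secreted Wnt inhibitors, *Dkk3* alone passed, in *Brg1-ECko* (0.68). In *Brg1/Chd4-ECdko*, where only 0.581% of all genes passed, none of the listed Wnt, BMP or HGF genes did (limma), with *Ccnd1* nearest at 0.82 (adjusted p = 0.0597). The hepatoblast marker sums given above moved with these genes, and their part was not tested.

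The last comparison asked whether a mutant effect differed between the fractions, as an interaction in 1 limma model of all 24 libraries. None of the 9 tested genes passed for *Chd4-ECko*, *Brg1-ECko* or *Brg1/Chd4-ECdko*, where 1.02%, 1.04% and 0.0581% of all genes did. *Bmp2* came nearest: its *Brg1-ECko* effect was lower in LSECs than in non-EC cells by -1.59 ± 0.42 (adjusted p = 0.0624, limma). With same-numbered libraries of the 2 fractions treated as pairs in a replicate block, the adjusted p was 0.0266 (limma), and over 19 alternatives it was 0.0266 to 0.146 and passed in 6. *Axin2* lay below the control mean in all 3 *Chd4-ECko* LSEC libraries and above it in all 3 *Chd4-ECko* non-EC libraries, an effect difference of -0.66 ± 0.27 (adjusted p = 0.203, limma). Among the pathway genes, 3 passed for *Brg1-ECko*: *Acvrl1* at -1.44 ± 0.26 (adjusted p = 0.00994, limma), *Id3* at -1.53 ± 0.33 (adjusted p = 0.0271, limma) and *Smad6* at -1.07 ± 0.24 (adjusted p = 0.0371, limma). *Acvrl1* was at 8.51, 9.16 and 12.7 TPM in *Brg1-ECko* LSECs against 16.2, 18.6 and 13.9 TPM in control LSECs, without overlap, as 3.71% of all genes were lower in that comparison, while its non-EC values lay above control. The endothelial marker sum was also lower in *Brg1-ECko* LSECs, at 912 to 1470 TPM against 1453 to 1899 TPM in control LSECs, and its part was not tested. Without *Brg1-ECko* LSEC replicate 1 the differences were -1.39 for *Bmp2* (adjusted p = 0.142, limma), -1.34 for *Acvrl1* (adjusted p = 0.0234, limma), -1.19 for *Id3* (adjusted p = 0.0471, limma) and -0.91 for *Smad6*, which no longer passed (adjusted p = 0.0845, limma).

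For each gene, the genes most like it were those with the highest Pearson correlation of log2(TPM + 1) over the 12 libraries of the fraction where it was higher, among genes with a mean of at least 5 TPM there. These libraries share genotypes and cell composition, so the values describe this set only. *Rspo3* varied most closely with *Pard6g* (0.98), *Gpc1* (0.97) and *Gulp1* (0.96). *Bmp2* varied with *Crmp1* (0.96) and *Prkce* (0.93) in LSECs, and *Hgf* with *Adgrl3* (0.96), *Ypel3* (0.95) and *Pbx3* (0.94). *Wnt2* was closest to the stress-response gene *Atf3* (0.95), followed by *Slc39a1* and *Nagk* (0.94 each), and *Wnt9b* to *Klf2* (0.87), a flow-responsive transcription factor gene of endothelium. *Bmp4* was closest to *Ier5l* (0.94) and *Bmp6* to *Chst15* and *Scarf1* (0.94 each). In non-EC cells *Met* varied with *Arhgap42* (0.99), the hepatoblast transcription factor gene *Onecut1* (0.99) and *Kif1b* (0.98), and *Lgr5* with *Rai14*, *Mcc* and *Arhgef11* (0.96 each). *Axin2*, compared in LSECs, was closest to *Zhx2* (0.96). Among the 10 genes themselves the highest values were 0.88 for *Met* with *Lgr5* in non-EC cells and 0.84 for *Rspo3* with *Hgf* in LSECs. Over the 11 LSEC libraries without *Brg1-ECko* replicate 1 the latter was 0.80, that of *Bmp2* with *Prkce* was 0.85, and the others named for LSECs were 0.87 to 0.96.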

How the data were processed

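The authors sequenced poly-A RNA of E12.5 liver fractions as paired reads, trimmed runs of G, mapped them with CLC Genomics Workbench (build GRCm39/mm39 in the submitters' processing notes) and deposited 24 columns of TPM, 1 for each library, with 8 columns of group means. The version of the software is not given in the sources used here. The group means equalled the means of the replicates in 8 of 8 columns and had no further use. The table held 0 columns of other samples.

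The 10 genes and the lists of other Wnt, BMP, HGF and marker genes were chosen with earlier results of these data known, so that no list is independent support. The text names all 10 genes, at most 4 passing genes of each pathway list and comparison by adjusted p, the most abundant other ligands, and up to 3 genes most like each of the 10; 1 such gene is not reported here. Names outside this rule are said to be chosen after their values were seen.

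limma 3.58.1 in R 4.3.3 was run on log2(TPM + 1) with a variance trend, for genes that reached 1 TPM in 3 or more of the libraries modelled: 13444 genes over 12 LSEC libraries, 12223 over 12 non-EC libraries and 13775 over all 24. Adjusted p-values are Benjamini-Hochberg over all genes of the model. The fit was tested on simulated data. Genes below the filter were compared by exact permutation tests. Alternatives changed the pseudocount (0.1), the filter (none, or a mean of 5 TPM), the scaling (quantile, without mitochondrial genes), the samples in the model and the replicate block, and left out each library; values of the pathway genes and counts of the lists under these were added after seeing the data. The LSEC and non-EC libraries with the same genotype and number deviated together in 12 of 12 pairs (correlation 0.124 to 0.411), and were taken as pairs from this check and not from the labels. Promoter windows and gene positions came from GRCm39 with the GENCODE annotation.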

Additional observations from a re-analysis of the deposited data

Results flagged for a closer look

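The effect of *Brg1-ECko* differed between the fractions by a test of the difference itself (limma) in 3 pathway genes, each lower in LSECs relative to non-EC cells: *Acvrl1* by -1.44, *Id3* by -1.53 and *Smad6* by -1.07 on the log2 scale. In this test 1.04% of all 13775 genes passed. For *Bmp2* the *Brg1-ECko* libraries lay on opposite sides of the control mean in the fractions, below it in LSECs and above it in non-EC cells, with an effect difference of -1.59 that did not pass (adjusted p = 0.0624, limma). The endothelial marker sum of *Brg1-ECko* LSECs was also lower than that of control LSECs, and per 100 TPM of these markers *Bmp2* was at 2.84 to 2.99 TPM in *Brg1-ECko* against 2.51 to 2.74 TPM in control LSECs. The part of the endothelial share in the *Bmp2* values was not tested. Without *Brg1-ECko* LSEC replicate 1, *Smad6* no longer passed (-0.91, adjusted p = 0.0845, limma). For *Axin2* the *Chd4-ECko* libraries lay on opposite sides of the control mean in the fractions, with an effect difference of -0.66 (adjusted p = 0.203, limma).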

How the results depend on the processing

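*Bmp2* in *Brg1-ECko* non-EC cells was a call that depended on the processing: the count of the 10 genes that passed was 0 with no filter on low values (*Bmp2* adjusted p = 0.0590, limma), with a mean of at least 5 TPM (*Bmp2* not tested) and with the 2 compared groups alone (*Bmp2* not tested, with 2 libraries at 1 TPM), and 0 to 1 when single libraries were left out (0 without any of the control replicates or *Brg1-ECko* replicates 2 or 3). In the test of the *Brg1-ECko* effect between fractions the count was 1 in place of 0, *Bmp2*, with a pseudocount of 0.1 TPM, quantile normalization, without mitochondrial genes and with the replicate block (pairing of same-numbered libraries), and 0 to 1 when single libraries were left out. The block changed no other count of calls among the 10 genes. The count between the fractions was 5 at a mean of at least 5 TPM, in controls and over the 4 genotypes, because fewer genes were tested. Leaving out single libraries gave 0 to 1 for *Chd4-ECko* in non-EC cells (*Hgf* -0.81, adjusted p = 0.0357, limma, without *Chd4-ECko* replicate 1) and 0 to 4 for *Brg1/Chd4-ECdko* against *Chd4-ECko* (*Bmp2* 1.21, *Hgf* 0.77, *Met* 0.88 and *Lgr5* 0.66 without the same library). *Axin2* over the 4 genotypes reversed to -0.29 under quantile normalization. The cause was not tested in these cases. Of 862 values of the 10 genes under other settings, 855 stayed on the same side of the threshold and 10 changed sign, and of 1037 with a library left out, 1025 stayed and 86 changed sign. No named pathway gene changed sign, in 739 and 1314 values, of which 25 and 84 lost the threshold. The counts of passing pathway genes in non-EC cells were less stable: 17 of 56 under other settings and 27 of 42 with a library left out moved by over 1.5 times. The BMP targets that passed in *Brg1-ECko* non-EC cells numbered 3 with no filter, 3 at a mean of 5 TPM and 2 with the 2 groups alone. Leaving out mitochondrial genes moved the median of all genes between the control fractions by 0.24, and the share of passing genes that were higher in LSECs from 46.7% to 60.4%. Without reads per gene, the precision of values under 1 TPM is unknown.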
